A study of Zea mays with 48 samples.

Results

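Pulvini harvested 15 min after maize plants were laid on their side were compared with pulvini of plants that stayed vertical. The comparison used 16 of the 48 arrays of the series. There were 4 arrays of reoriented and 4 of vertical pulvini for polysomal RNA, and again 4 and 4 for total RNA. All plants were of the inbred line B73, about 6 weeks old and grown in a greenhouse. In the reoriented groups the pots were turned to the horizontal, and the second pulvinus above the soil was cut into its upper and lower sides. In the vertical groups, which were never turned, the same pulvinus was cut into a left and a right part, and these stand as the baseline of all times. Sides of 6 pulvini were pooled and ground to 1 frozen powder, from which total RNA and, from a further aliquot, RNA bound to polyribosomes were extracted. The experiment was run in 2 growing seasons. Each season holds 1 pool of plants per condition, and both sides come from the same plants, so the 4 arrays of a group stand for 2 independent pools. The tissue is a mixture of cell types, and in such a sample fewer cells of a type and less RNA per cell cannot be told apart.

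The pulvinus is a pad of cells at the nodes of a grass stem. Its cells hold starch-filled plastids that settle when the stem falls over, and after a lag in which calcium, pH and auxin change, the lower side elongates faster and bends the stem upright. Polyribosome-bound mRNA is the share of the mRNA that ribosomes are translating, so the paired extracts follow both the amount of a transcript and the amount engaged in translation.

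Signals of the 16 arrays had medians of 174.3 to 216.9, and 15.9% to 22.4% of their probe sets lay below a signal of 16. Across probe sets both sides of a pool correlated at 0.981 to 0.992, and arrays of 1 group from different seasons at 0.907 to 0.934. One polysomal array of another time, labelled upper side, 5 min, season 1, correlated at 0.903 with the other side of its own pool and at 0.981 with the same side of season 2. It enters the tests at 15 min through the shared estimates of spread and of the correlation within pools, while the changes at 15 min stay the same. The values at 5 min hold it directly. Without it 390 polysomal probe sets passed in place of 399. The median SE of a change was 0.159 in polysomal and 0.169 in total RNA, and the number of pools limits this precision.

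The response at 15 min was mostly an increase, and it was of large size for a small set of transcripts. In polysomal RNA 297 of the 10527 probe sets tested rose (2.82%) and 102 fell (0.969%), together 399 or 3.79%. In total RNA 246 rose (2.34%) and 47 fell (0.446%), together 293 or 2.78%. The counts of falls depended on single arrays: without the lower array of season 2, 56 fell in polysomal RNA, and without the lower array of season 1, 26 fell in total RNA. A probe set is a group of short probes on the Affymetrix GeneChip Maize Genome Array that is meant to report 1 transcript, though some can bind related ones. The call is a limma test on log2(signal + 16) with a Benjamini-Hochberg adjusted p below 0.05, and all changes below are log2 differences on that scale, reoriented minus vertical, with their standard error (SE). The median rise was 1.20 in polysomal and 1.31 in total RNA, and the median fall was -0.69 and -0.80. Of those that rose, 60 in polysomal and 62 in total RNA went up by more than 2, and the highest changes were 5.92 and 5.98. The lowest were -1.84 and -1.76. Over all tested probe sets the median change was -0.02 in polysomal and -0.03 in total RNA.

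The array signals of these transcripts, which are the values the call was made on, are described next. The 4 reoriented and 4 vertical arrays did not overlap for 273 of the 297 polysomal and 233 of the 246 total RNA probe sets that rose. Among all tested probe sets such a separation upward occurred for 6.73% in polysomal and 6.63% in total RNA. Of those that fell, 84 of 102 and 36 of 47 did not overlap, against 5.17% and 5.83% of all tested. The array's annotation names a gene for 920 of the tested probe sets, or 773 genes. In polysomal RNA 34 of these 920 were called (3.70%), for 23 genes that rose and 7 that fell. In total RNA 15 were called (1.63%), for 13 genes that rose and 1 that fell. Only 2 of the probe sets that went up by more than 2 in each RNA carry a gene name, so most of the strongest rises are known here by probe set alone.

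The named genes are given with their signals in the order upper and lower side of season 1, then upper and lower side of season 2, and for vertical pulvini left and right side of season 1, then of season 2. Among transcription factors, the genes dbf1, dbf2 and DBP1a, whose proteins bind the dehydration-responsive DNA element, stood out. dbf1 had polysomal signals of 1556, 1409, 1183 and 1134 in reoriented pulvini, against 383, 365, 359 and 332 in vertical pulvini. It rose by 1.82 ± 0.26 (adjusted p = 0.000452), and all reoriented arrays were above every vertical one. In total RNA it had 1829, 1896, 1593 and 1838 in reoriented pulvini, against 616, 540.0, 486 and 462 in vertical pulvini, a rise of 1.74 ± 0.17 (adjusted p = 2.70e-05). Its seasons were close, at 1.70 in season 2 and 1.94 in season 1 for polysomal RNA. dbf2 had polysomal signals of 252, 299.7, 184 and 259.7 in reoriented pulvini, against 93.7, 84.5, 86.2 and 73.3 in vertical pulvini. It rose by 1.38 ± 0.20 (adjusted p = 0.0004) in polysomal and by 1.44 ± 0.37 (adjusted p = 0.0483) in total RNA. DBP1a had 594, 560.5, 564 and 614 in reoriented pulvini, against 333, 336, 309.5 and 280.0 in vertical pulvini and rose by 0.86 ± 0.13 in polysomal RNA (adjusted p = 0.000969). Its total RNA change of 0.72 ± 0.20 did not pass (adjusted p = 0.0652). The total RNA call of dbf2 was lost without any of 7 of the 8 arrays compared (adjusted p up to 0.136). The list of early stress transcription factors held 9 tested probe sets, of which 3 rose in polysomal and 2 in total RNA, beside 2.82% and 2.34% of all tested. The other members, the basic leucine zipper factors OBF1, obf3.2 and GBF1 and the ethylene response factor ERF1, lay between -0.34 and 0.09 in polysomal RNA and did not pass.

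**Figure D1:**
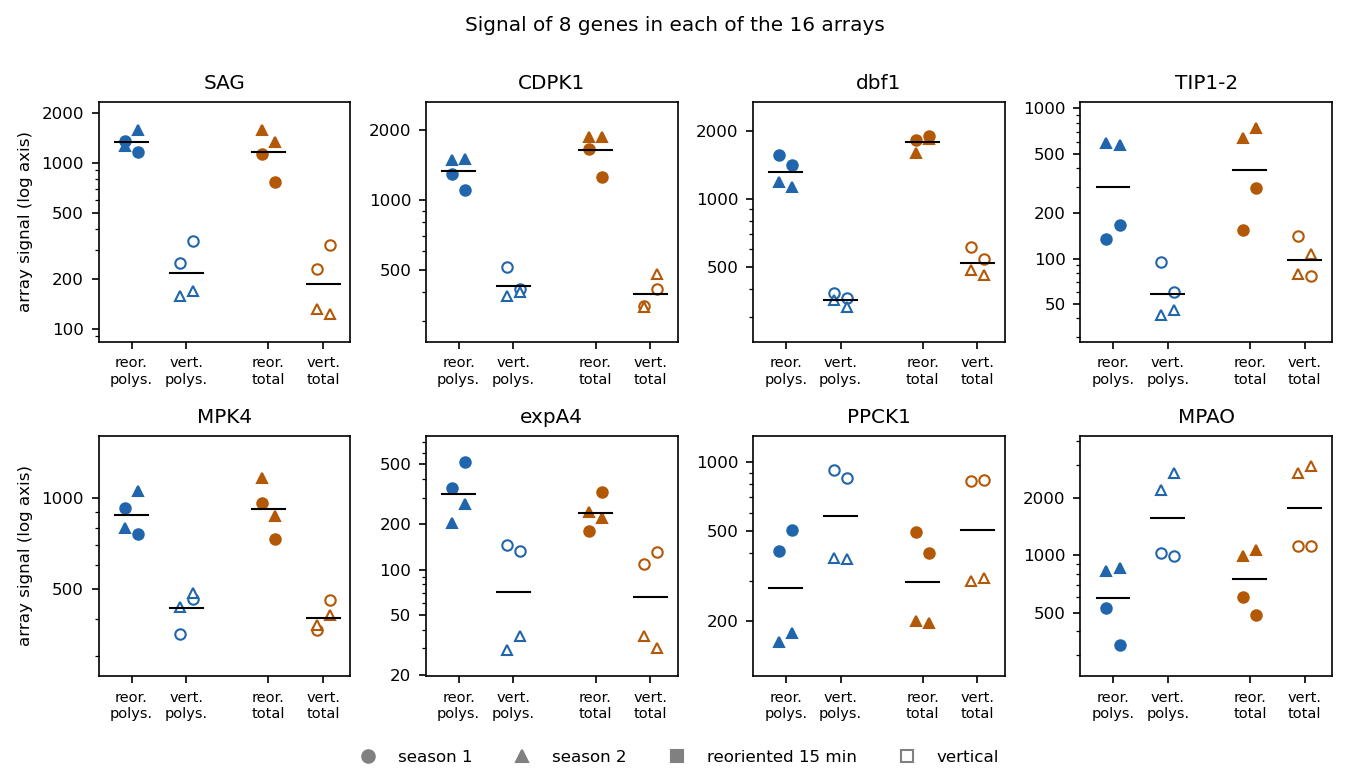
Array signal (log axis) of 8 genes in reoriented pulvini at 15 min (filled, left of each pair) and vertical pulvini (open), for polysomal RNA (blue) and total RNA (orange). Circles are season 1 and triangles season 2, upper and left sides lie left of the lower and right sides, and bars are means on the log2(signal + 16) scale. The groups of SAG, CDPK1, dbf1, TIP1-2, MPK4, expA4 and MPAO do not overlap in either RNA, while those of PPCK1 overlap across seasons and separate within each.

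Calcium and kinase signalling genes followed. CDPK1, a calcium-dependent protein kinase (gene LOC542224), had polysomal signals of 1288, 1108, 1486 and 1506 in reoriented pulvini, against 514, 413, 386 and 401 in vertical pulvini. The groups lay far apart, and it rose by 1.61 ± 0.21 (adjusted p = 0.000231). In total RNA it had 1655, 1253, 1872 and 1859.5 in reoriented pulvini, against 349.7, 413, 346 and 478 in vertical pulvini and rose by 2.02 ± 0.27 (adjusted p = 0.00032), a 4.04-fold higher value of signal + 16. It was the single probe set of 13 in the calcium list that passed in each RNA, beside 3.79% of all tested in polysomal and 2.78% in total RNA. Calmodulin CaM1 stood at 0.34 in polysomal and 0.55 in total RNA, the calreticulin CRH at 0.25 and 0.38 in polysomal RNA by its 2 probe sets, and the kinase CDPK2 at -0.06, none past the threshold. The MAP kinase gene MPK4 had polysomal signals of 929, 761, 801 and 1060.4 in reoriented pulvini, against 356, 464, 437 and 485 in vertical pulvini. It rose by 1.00 ± 0.15 (adjusted p = 0.000717) in polysomal RNA and by 1.17 ± 0.17 (adjusted p = 0.000681) in total RNA. Its groups did not overlap, and its polysomal rise was 0.98 in season 2 and 1.02 in season 1.

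Of the 10 probe sets on the list of other kinases and phosphatases, MPK4 was the 1 that rose in each RNA, beside 2.82% of all tested in polysomal and 2.34% in total RNA. PPCK1, the kinase that phosphorylates phosphoenolpyruvate carboxylase, was the 1 that fell, in polysomal RNA, where 0.969% of all tested fell. PPCK1 had 407, 502, 162 and 177 in reoriented pulvini, against 922, 849, 378 and 374 in vertical pulvini, with levels in season 1 above those of season 2 in both conditions. Across seasons the groups overlapped, within each season they did not, and the fall was -1.01 ± 0.19 (adjusted p = 0.00383). Its total RNA change was -0.73 ± 0.20 (adjusted p = 0.068). The energy-sensing kinases akin1 and SnrK1, the growth kinase TOR and the MAP kinase mpk6 lay between -0.15 and -0.02 in polysomal RNA and did not pass. S6K, a kinase of ribosomal protein S6, is not on that list. It had total RNA signals of 211, 227, 393 and 310.1 in reoriented pulvini, against 156, 144, 125 and 133 in vertical pulvini and rose by 0.92 ± 0.24 (adjusted p = 0.0475). In polysomal RNA its change of 0.65 ± 0.18 did not pass (adjusted p = 0.0535). Its total RNA call was lost without any of 6 of the 8 arrays (adjusted p up to 0.131).

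The highest rise of a gene named on the array was that of SAG, whose product the annotation used here does not describe. SAG had polysomal signals of 1356, 1165, 1266 and 1574 in reoriented pulvini, against 248, 337, 157 and 168 in vertical pulvini. In total RNA it had 1126, 768, 1588 and 1334 in reoriented pulvini, against 227, 319, 131 and 123 in vertical pulvini. Every reoriented array was above every vertical one, and the rise was 2.53 ± 0.26 in polysomal (adjusted p = 1.96e-05) and 2.55 ± 0.31 in total RNA (adjusted p = 0.000136). It was larger in season 2, where the vertical signals were lower, at 3.36 against 1.73 in season 1 for total RNA. The genes LOC542227 and LOC732777, also without a description here, rose by 1.38 ± 0.22 and 1.14 ± 0.17 in polysomal and by 1.53 ± 0.27 and 1.32 ± 0.24 in total RNA, with groups that did not overlap. A second probe set of LOC542227 gave 0.78 ± 0.20 in polysomal RNA (adjusted p = 0.044) and 0.29 ± 0.20 in total RNA (adjusted p = 0.523), so its probe sets disagree in total RNA.

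Water and nutrient transport genes moved in both directions. TIP1-2, a water channel of the vacuole membrane, had polysomal signals of 135, 168, 587 and 570.4 in reoriented pulvini, against 95.6, 60.0, 41.9 and 45.3 in vertical pulvini. Season 2 was far higher than season 1 in the reoriented arrays, while the vertical arrays were low in both. It rose by 2.09 ± 0.54 (adjusted p = 0.0406) in polysomal and by 1.82 ± 0.46 (adjusted p = 0.0427) in total RNA, and the polysomal change was 3.32 in season 2 and 0.86 in season 1. The genes pip2c and PIP1-3, for water channels of the plasma membrane, fell in polysomal RNA. pip2c had 729.8, 803, 810.2 and 775 in reoriented pulvini, against 1519.9, 1324, 1322 and 1060.3 in vertical pulvini, without overlap, and fell by 0.72 ± 0.17 (adjusted p = 0.0277) in polysomal RNA. PIP1-3 fell by 0.74 ± 0.20 and 0.70 ± 0.18 on 2 of its 4 probe sets (adjusted p = 0.0479 and 0.0404). When 1 of the 8 polysomal arrays was left out, the call was lost in 6 cases for TIP1-2 (adjusted p up to 0.118), 6 for pip2c (up to 0.0908) and 7 for the first of these PIP1-3 probe sets (up to 0.138), and in total RNA in 6 for TIP1-2 (up to 0.124). The other PIP1-3 probe sets stood at -0.73 ± 0.21 and -0.68 ± 0.21 and did not pass.

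In the aquaporin list as a whole, 26 probe sets of 22 genes were tested. In polysomal RNA 1 rose and 3 fell, where 2.82% and 0.969% of all tested did. In total RNA 1 rose and 0 fell by limma, with 9 below 0 at an unadjusted p under 0.05, where 2.34% and 0.446% of all tested rose and fell. Estimates were below 0 for 23 of the 26 in each RNA (88.5%), against 53.3% of all tested probe sets in polysomal and 55.7% in total RNA. The list's median change was -0.34 in polysomal and -0.37 in total RNA. Within seasons the polysomal median was -0.26 in season 2 and -0.50 in season 1, and the total RNA median was -0.14 and -0.55. The photosynthesis list, which marks green tissue, moved alike by season, with polysomal medians of -0.10 in season 2 and -0.78 in season 1 and total RNA medians of 0.02 and -0.82, and its part in the aquaporin values was not tested. pip2b, at -0.68 in polysomal RNA, missed the threshold by little (adjusted p = 0.0517), and the nodulin-like channel NIP2-2 had the lowest estimate, -1.19 (adjusted p = 0.269).

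pht7 and pht1, phosphate transporters, were the 2 of 7 ion and nutrient transport probe sets that passed in polysomal RNA, both upward, where 2.82% of all tested rose. In total RNA 1 of 7, pht7, rose, where 2.34% of all tested did. pht7 had polysomal signals of 248, 361, 179.5 and 170.3 in reoriented pulvini, against 133, 157, 36.9 and 24.1 in vertical pulvini and rose by 1.51 ± 0.37 (adjusted p = 0.0279). In total RNA it rose by 1.36 ± 0.34 (adjusted p = 0.0433), although its groups overlapped across seasons. pht1 had 554, 443, 288 and 249.6 in reoriented pulvini, against 217, 361, 127 and 95.0 in vertical pulvini and rose by 0.98 ± 0.24 in polysomal RNA (adjusted p = 0.0277), with groups that overlapped across seasons and not within them. Its total RNA change was 0.93 ± 0.34 (adjusted p = 0.193). With 1 array left out the polysomal call was lost in 5 of 8 cases for pht7 (adjusted p up to 0.11) and for pht1 (up to 0.0825), and the total RNA call of pht7 in 7 (up to 0.112). The plasma membrane proton pumps mha1 and mha4 gave -0.59 and 0.29 in polysomal RNA, neither past the threshold.

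Among cell wall genes, UGlcAE and expA4 rose. UGlcAE, a UDP-glucuronic acid epimerase of wall precursor synthesis, had polysomal signals of 1618, 1892, 804 and 946 in reoriented pulvini, against 738, 579, 452 and 410.4 in vertical pulvini on the probe set chosen by rule. The rise was 1.19 ± 0.25 (adjusted p = 0.0103) in polysomal and 1.18 ± 0.25 (adjusted p = 0.0121) in total RNA. With the mean of both sides of each pool as 1 sample the call on that probe set was lost in each RNA (adjusted p = 0.0692 in polysomal and 0.0852 in total RNA). Its second probe set rose by 1.76 ± 0.34 (adjusted p = 0.0056) and 1.92 ± 0.29 (adjusted p = 0.00083). expA4, an alpha-expansin, a protein that loosens growing walls, had 349.7, 516, 204 and 274 in reoriented pulvini, against 147, 133, 29.5 and 36.1 in vertical pulvini on 1 probe set and rose there by 1.94 ± 0.26 in polysomal RNA (adjusted p = 0.000246). The total RNA value on that probe set was 1.64 ± 0.43 (adjusted p = 0.0506). The other 2 expA4 probe sets gave 0.28 ± 0.35 and 0.45 ± 0.26 in polysomal RNA and did not pass, so the probe sets of this gene disagree. The cell wall list does not hold UGlcAE. That expA4 probe set was the 1 of 31 on the list that passed in polysomal RNA, beside 3.79% of all tested. In total RNA 0 of 31 passed by limma, with 6 at an unadjusted p under 0.05. The list's median was -0.04 in polysomal RNA, with 19 of 31 estimates below 0, and 0.09 in total RNA, with 11 of 31 below 0. The expansins expB7, expa2 and EXPA5 had estimates of 1.75, 0.78 and 0.69 in polysomal RNA that did not pass (adjusted p = 0.272, 0.564 and 0.347), while expA3 and expB5 had -0.56 and -0.44 (adjusted p = 0.21 and 0.587), and the cellulose synthases of the list lay between -0.24 and 0.36.

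Among redox and chaperone genes, gst30, a glutathione S-transferase, was the 1 of 29 redox probe sets that rose, in polysomal RNA, where 2.82% of all tested rose. It had 297, 470.4, 490.1 and 591 in reoriented pulvini, against 126, 70.8, 172 and 219 in vertical pulvini, a rise of 1.61 ± 0.36 (adjusted p = 0.0161). In total RNA its change of 1.71 ± 0.57 was as large but varied more and did not pass (adjusted p = 0.146). Without the upper array of season 2 the polysomal call of gst30 was lost (adjusted p = 0.0603), and likewise without the lower array of season 1 (adjusted p = 0.0537). CPN60II, a mitochondrial chaperonin, was the 1 of 13 heat shock and chaperone probe sets that rose, in total RNA, where 2.34% of all tested did. It rose by 0.63 ± 0.13 (adjusted p = 0.0142). Its polysomal change was 0.29 ± 0.19 (adjusted p = 0.485). Its total RNA call was lost with pool means as samples (adjusted p = 0.0689) and in the fit of the 8 arrays alone (0.0746). In total RNA 3 of the 13 chaperone estimates were below 0 (23.1%, against 55.7% of all tested), with a list median of 0.27, and in polysomal RNA the median was 0.17. The polysomal median was -0.10 in season 2, with 9 of 13 below 0, and 0.31 in season 1.

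Enzyme genes of polyamine and lysine breakdown were among those that fell. MPAO, a polyamine oxidase, had polysomal signals of 529, 336, 828 and 858 in reoriented pulvini, against 1023, 990.5, 2194 and 2703 in vertical pulvini. All reoriented arrays were below every vertical one, with a fall of 1.37 ± 0.32 (adjusted p = 0.025). The total RNA change of -1.23 ± 0.55 had a wide error and did not pass (adjusted p = 0.302). lkrsdh1, which encodes the enzyme pair that starts lysine breakdown, had 292, 305, 386 and 326 in reoriented pulvini, against 498, 502, 612 and 688 in vertical pulvini, without overlap, and fell by 0.78 ± 0.20 (adjusted p = 0.0377). These were the 2 of 13 nitrogen and polyamine probe sets that passed in polysomal RNA, where 0.969% of all tested fell, and 0 of 13 passed in total RNA by limma, with 2 at an unadjusted p under 0.05. With 1 array left out their calls were lost in 4 of 8 cases for MPAO (adjusted p up to 0.0821) and 6 for lkrsdh1 (up to 0.112). MZPPT1, the phosphoenolpyruvate translocator of the plastid envelope, rose in total RNA by 0.45 ± 0.11 (adjusted p = 0.0303), with 2347, 2416, 2417 and 2608 in reoriented pulvini, against 1767, 1626, 1980.5 and 1800.2 in vertical pulvini. In polysomal RNA it stood at 0.12 ± 0.12 (adjusted p = 0.667). Its total RNA call was lost in 6 of 8 cases (adjusted p up to 0.0712).

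Nuclear and ribosomal genes moved little as groups. Of 57 chromatin probe sets, H1 (his1), a linker histone, fell in each RNA, on different probe sets. The one that passed in total RNA had 313, 421, 714 and 1022 in reoriented pulvini, against 1229, 1218, 1436 and 1574 in vertical pulvini and fell by 1.26 ± 0.27 (adjusted p = 0.0166), and in polysomal RNA it gave -1.23 ± 0.36 (adjusted p = 0.0769). The one that passed in polysomal RNA fell by 0.73 ± 0.20 (adjusted p = 0.0497), close to the threshold. Without the lower array of season 1 the total RNA call of H1 was lost (adjusted p = 0.0506), and its polysomal call was lost without any 1 of the 8 arrays (up to 0.134). Probe sets with an x in their name can bind related transcripts, and so can those ending in _s_at. Here the former include the H1 probe sets, and further on the ubc7 probe set that passed and the second of ypt2. The latter include the pip2c probe set and the LOC542227 probe set given first above. HDT1, a plant-type histone deacetylase, rose by 0.58 ± 0.15 in polysomal RNA (adjusted p = 0.0489) and stood at 0.17 ± 0.11 in total RNA (adjusted p = 0.491). Its other 2 probe sets gave 0.61 ± 0.22 and 0.31 ± 0.16 in polysomal RNA and did not pass (adjusted p = 0.15 and 0.364). The polysomal call of HDT1 was lost in 6 of 8 such cases (adjusted p up to 0.161) and with quantile scaling (0.058). Those calls are 1 rise and 1 fall of 57 in polysomal and 1 fall in total RNA, beside 3.79% and 2.78% of all tested. The list medians were 0.06 in polysomal and 0.05 in total RNA.

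RPL19, a protein of the large ribosomal subunit, was the 1 of 45 ribosomal probe sets that rose, in polysomal RNA, where 2.82% of all tested rose. Its polysomal signals were 1590.2, 1709, 1883 and 1749.7 in reoriented pulvini, against 1310.5, 1205, 1028 and 1117 in vertical pulvini, and its total RNA signals were 2738, 2625, 3199 and 3339.8 in reoriented pulvini, against 2499, 2610.5, 3172 and 3296 in vertical pulvini. The groups separated in polysomal RNA, a rise of 0.57 ± 0.11 (adjusted p = 0.00399), and overlapped in total RNA, at 0.04 ± 0.12 (adjusted p = 0.906). In the fit of the 8 polysomal arrays alone its call was lost (adjusted p = 0.0554). PCNA, the sliding clamp of DNA replication, was the 1 of 11 cell division probe sets that rose in polysomal RNA, where 2.82% of all tested did. Its rise was 0.98 ± 0.24 (adjusted p = 0.0286), with 0.37 in season 2 and 1.60 in season 1. ROA rose in polysomal RNA by 1.42 ± 0.33 (adjusted p = 0.0208). GRF4 fell by 0.45 ± 0.12 in polysomal RNA (adjusted p = 0.0422). With 1 array left out the call was lost in 4 of 8 cases for PCNA (adjusted p up to 0.0896), 4 for ROA (up to 0.0663) and 7 for GRF4 (up to 0.126). The Rab-type GTPase ypt2, of vesicle traffic, rose by 0.63 ± 0.13 and 0.60 ± 0.13 on 2 probe sets in polysomal RNA (adjusted p = 0.0119 and 0.0135). These probe sets share 1 gene and were the 2 of 13 small GTPase probe sets that passed in polysomal RNA, beside 2.82% of all tested that rose, and with pool means as samples the call on the first was lost (adjusted p = 0.112). In total RNA 0 of the 45 ribosomal, 11 cell division and 13 small GTPase probe sets passed by limma, with 4, 2 and 4 at an unadjusted p under 0.05.

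Of the 23 genes that rose in polysomal RNA, 15 are named by the rule. The others, among them DBP1a, HDT1, ypt2 and RPL19 above, were picked after their values were seen. The 4 not yet described are cap1, a calcium pump, at 0.74 ± 0.17, RR5, a response regulator of cytokinin signalling, at 0.66 ± 0.16, hsfb, a heat shock factor, at 0.59 ± 0.15, and ubc7, a ubiquitin-conjugating enzyme, at 0.50 ± 0.13. Their adjusted p were 0.0226, 0.0249, 0.0417 and 0.038. With 1 array left out these calls were lost in 4 to 6 of 8 cases, with adjusted p up to 0.0795, 0.0911, 0.147 and 0.129. The other ubc7 probe sets did not pass. The calcium list does not hold cap1, nor the heat shock list hsfb.

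**Figure D2:**
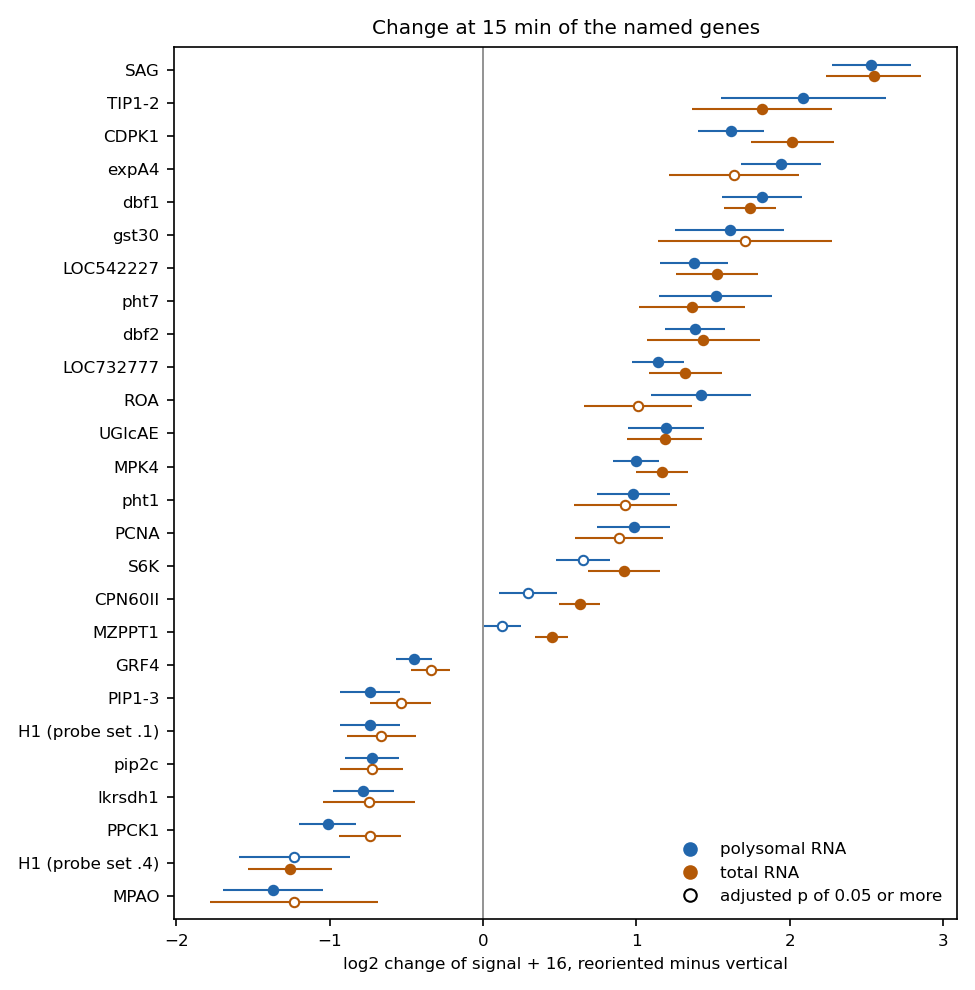
Log2 change of signal + 16 at 15 min, reoriented minus vertical, with its SE, for the genes named by rule in polysomal RNA (blue) and total RNA (orange). Filled points passed the adjusted p of 0.05 and open points did not; the values for the 2 RNAs lie close together for most genes, from SAG at 2.53 and 2.55 to MPAO at -1.37 and -1.23.

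The strongest changes of all belonged to probe sets with no gene in the annotation. Zm.1524.1.A1_at had polysomal signals of 2243, 1984, 2413 and 2744 in reoriented pulvini, against 55.8, 64.2, 1.2 and 6.8 in vertical pulvini. In total RNA it had 1744, 1482, 2512 and 2472 in reoriented pulvini, against 37.1, 48.3, 1.3 and 1.9 in vertical pulvini. Vertical signals of season 2 were near 0 and those of season 1 low, and the rise was 5.92 ± 0.68 in polysomal (adjusted p = 5.42e-05) and 5.98 ± 0.67 in total RNA (adjusted p = 6.30e-05). Since 16 was added to each signal, this understates the ratio of the signals themselves. Zm.12139.1.A1_at had total RNA signals of 6594, 5493, 7513 and 7771 in reoriented pulvini, against 191, 186, 346 and 103 in vertical pulvini, a rise of 5.04 ± 0.56 (adjusted p = 6.30e-05). Zm.16474.1.A1_at had polysomal signals of 1938, 1950.3, 1929 and 2367 in reoriented pulvini, against 69.5, 57.7, 38.1 and 26.7 in vertical pulvini and rose by 5.06 ± 0.40 (adjusted p = 2.58e-06).

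The deepest falls were those of Zm.11739.1.A1_at in both RNAs, of Zm.4465.1.A1_at in total and of Zm.7385.1.A1_at in polysomal RNA. Zm.11739.1.A1_at had polysomal signals of 236, 384, 186 and 149.5 in reoriented pulvini, against 989, 1114, 709 and 661 in vertical pulvini, without overlap, and fell by 1.84 ± 0.23 (adjusted p = 0.000176). In total RNA it fell by 1.76 ± 0.30 (adjusted p = 0.00249). Zm.4465.1.A1_at fell by 1.72 ± 0.43 in total RNA (adjusted p = 0.0407) and by 1.80 ± 0.40 in polysomal RNA (adjusted p = 0.0153). Zm.7385.1.A1_at fell by 1.83 ± 0.47 in polysomal RNA (adjusted p = 0.0412), with -2.93 in season 2 and -0.72 in season 1. With pool means as samples the total RNA calls of Zm.4465.1.A1_at and Zm.11739.1.A1_at and the polysomal call of Zm.7385.1.A1_at were lost (adjusted p = 0.136, 0.0526 and 0.107). The call of Zm.4465.1.A1_at was also lost with quantile scaling (0.0503) and that of Zm.7385.1.A1_at in the 8-array fit (0.0711). With 1 array left out each of these 2 lost its call in 6 of 8 cases (adjusted p up to 0.0946 and 0.138).

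Whether translation changed beyond the amount of transcript was asked by taking polysomal minus total log2 signal of the same powder. All arrays of both RNAs have nearly the same trimmed mean signal (497.0 to 499.1). A shift of all transcripts onto or off polyribosomes could therefore not be seen, and the difference is relative to the average transcript. For that difference 0 of 10527 probe sets passed by limma, 697 had an unadjusted p under 0.05 and the lowest adjusted p was 0.551. RPL19 had a difference of 0.53 ± 0.18 (95% interval 0.15 to 0.90), HDT1 of 0.41 ± 0.15 (0.10 to 0.72) and ubc7 of 0.41 ± 0.15 (0.09 to 0.73). The other 2 HDT1 probe sets gave 0.36 ± 0.22 (-0.11 to 0.82) and 0.04 ± 0.15 (-0.29 to 0.36). The other 4 ubc7 probe sets lay between 0.09 and 0.43, and the interval of 3 of them included 0. CDPK1 had a difference of -0.40 ± 0.13 (-0.68 to -0.13) and MZPPT1 of -0.32 ± 0.13 (-0.60 to -0.04). These intervals are not adjusted for the number of probe sets, and the adjusted p of each was 0.597 or more. For 20 of the 22 genes named by rule in polysomal RNA and 12 of the 14 in total RNA the interval included 0. The genes that passed in 1 RNA alone are therefore not shown to differ between the RNAs.

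The sides of the reoriented pulvinus were next compared with each other, since the lower one will elongate faster. Lower minus upper at 15 min gave 4 probe sets in total RNA (0.038%), 3 higher and 1 lower, with 716 at an unadjusted p under 0.05. In polysomal RNA it gave 0 by limma, with 254 unadjusted. Right minus left in vertical pulvini, the same cut without gravity stimulation, gave 2 in total RNA (0.019%) and 0 in polysomal RNA, with 576 and 356 unadjusted. When that vertical difference was subtracted, 0 passed in either RNA, with 918 unadjusted in total and 446 in polysomal RNA. Zm.14513.7.A1_at had total RNA signals of 609.4 and 892.6 in the lower sides of seasons 1 and 2, against 174.9 and 265.4 in the upper sides. Its lower minus upper value was 1.70 ± 0.25 (adjusted p = 0.0183), whereas vertical sides spanned 266.0 to 612.6. Its polysomal value was -0.19 with an interval of -1.20 to 0.82. Zm.12097.1.A1_at gave 1.25 ± 0.19 (adjusted p = 0.0223), Zm.858.1.A1_at gave -0.64 ± 0.09 (adjusted p = 0.0183), and Zm.6501.1.A1_at, picked after its values were seen, gave 0.85 ± 0.13 (adjusted p = 0.0223). With any 1 of the 4 reoriented total RNA arrays left out, 0 of these 4 probe sets passed, and 0 did in the fit of the 8 arrays alone, without the plant pool block or without a filter.

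The genes named above were compared between the sides in the same fit. Lower minus upper lay between -0.40 and 0.54 for the 14 genes named in total RNA and between -0.29 and 0.47 for the 22 in polysomal RNA. The lowest adjusted p of these were 0.459 and 0.999, and the unadjusted interval included 0 for 11 of 14 and 22 of 22. MPK4 had the lowest of these estimates in total RNA, -0.40 ± 0.12, which did not pass. Its 95% interval of -0.66 to -0.14 is not adjusted. In polysomal RNA it gave 0.06 ± 0.14 (95% interval -0.25 to 0.36).

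Every probe set that passed had the same sign in both seasons, beside 58.4% of all tested in polysomal and 58.5% in total RNA. The call was made on the mean of the seasons, so this agreement is no support for it. Of the 297 that rose in polysomal RNA, 206 rose more in season 2, with a median of 1.28 in season 2 and 1.09 in season 1. Of the 246 that rose in total RNA, 205 did, with medians of 1.53 and 1.09. The fallen probe sets had medians of -0.64 in season 2 and -0.69 in season 1 for polysomal RNA, and of -0.76 and -0.88 for total RNA. Each season has 1 pool per condition, so these values have no test. Among the genes named by rule in polysomal RNA the seasons lay farthest apart for TIP1-2, ROA and PCNA. TIP1-2 rose more in season 2, whereas ROA, at 0.64 in season 2 and 2.20 in season 1, and PCNA rose more in season 1.

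**Figure D3:**
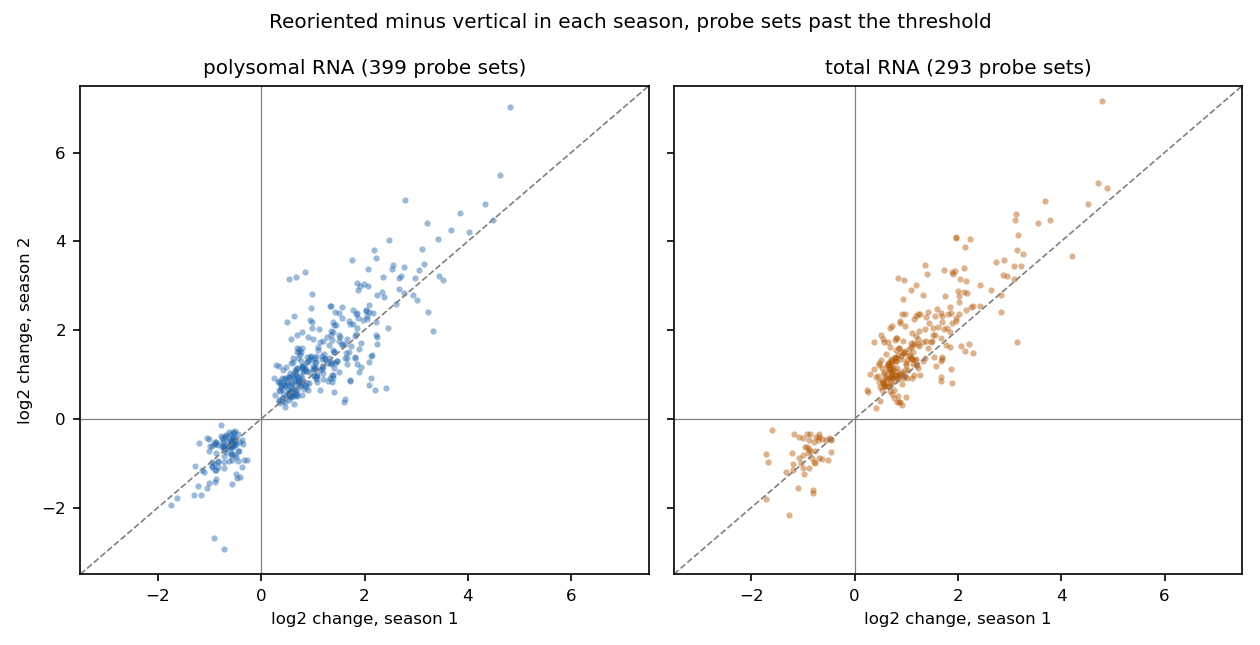
Log2 change, reoriented minus vertical, in season 1 (x axis) and season 2 (y axis) for the 399 probe sets past the threshold in polysomal RNA and the 293 in total RNA. The dashed line marks equal change; 206 of the 297 rising polysomal probe sets and 205 of the 246 rising total RNA probe sets lie above it.

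The other times were set beside 15 min for the same genes. All times share the vertical arrays, so each has its own value only. SAG, in polysomal RNA, gave 0.51, 0.18, 2.53, 2.09 and 1.55 at 2, 5, 15, 30 and 60 min. CDPK1 gave 0.26, 0.13, 1.61, 1.34 and 0.92. The polysomal value at 5 min includes the array of season 1 that resembles season 2. Without it, an alternative chosen after seeing the data, SAG gave -0.03 ± 0.26 and CDPK1 0.30 ± 0.21 at 5 min, and in total RNA they gave 0.53 ± 0.31 and 0.08 ± 0.27. dbf1 was high earlier, with 1.64, 1.11, 1.82, 1.19 and 0.46. TIP1-2 gave 1.77, 1.76, 2.09, 2.01 and 1.40, and 1.40 ± 0.54 at 5 min without that array. expA4 gave 0.81, 0.29, 1.94, 2.21 and 2.02, with a 30 min value as high as that of 15 min. DBP1a, at 0.43, 0.54, 0.86, 0.20 and -0.01, and PPCK1, at 0.00, -0.03, -1.01, -0.32 and -0.19, were farthest from the vertical level at 15 min. Zm.16474.1.A1_at had come back farthest by 30 min among the 3 highest probe sets, at 1.06, 1.56, 5.06, 0.81 and 0.42. Zm.1524.1.A1_at, at 1.34, 1.69, 5.92, 5.16 and 2.40, was still high at 30 min. For all 14 genes named in total RNA and for 15 of the 22 in polysomal RNA the estimate at 15 min was the farthest from 0 of the 5 times. The genes were chosen by their value at 15 min, so this count supports nothing by itself.

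**Figure D4:**
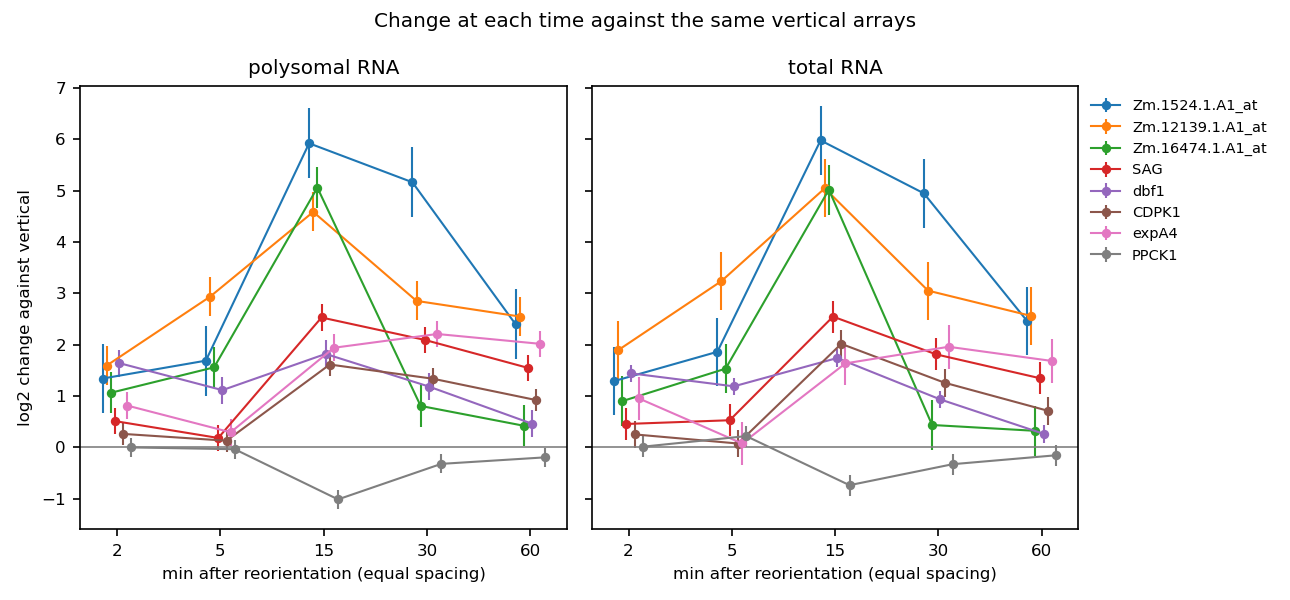
Log2 change against the same vertical arrays at 2, 5, 15, 30 and 60 min (equal spacing on the x axis), with SE, for 5 genes and 3 probe sets without a listed gene. Zm.16474.1.A1_at stands at 5.06 in polysomal RNA at 15 min and 0.81 at 30 min, and PPCK1 at -1.01 and -0.32; the polysomal 5 min values include the array that resembles the other season.

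The lists of jasmonate, auxin, ethylene, gibberellin and abscisic acid genes gave no calls. Of the 26 gene lists examined, 13 had no probe set past the threshold in either RNA. The 12 jasmonate and wound probe sets had a median of -0.21 in each RNA, with the lipoxygenase lox1 at -0.73 and -0.71 on 2 probe sets and the oxophytodienoate reductase opr1 at 0.84 in polysomal RNA. Within seasons the median of this list was -0.41 in season 2 and 0.11 in season 1 in polysomal RNA. In total RNA it was -0.36 and -0.03. Of 6 auxin probe sets, the auxin-binding protein abp1 stood at -0.45 and aic1 at 1.23 in polysomal RNA. The ethylene list held 2 probe sets, the ACC oxidase acco20 at 0.88 (adjusted p = 0.0981) and the receptor etr2 at 0.26 in polysomal RNA. The gibberellin list held CYP88A1, an enzyme of gibberellin synthesis, at -0.83 (adjusted p = 0.122) and an1 at -0.24. The remaining lists without a call held 8 abscisic acid, 12 phospholipid and inositol, 7 lignin, 28 cytoskeleton, 18 sucrose and starch, 25 glycolysis and respiration, 12 leaf patterning, 20 photosynthesis and 6 seed and pollen probe sets. Apart from the photosynthesis and the seed and pollen lists, the medians of these were between -0.19 and 0.12 in polysomal and between -0.16 and 0.18 in total RNA. Medians near 0 can hide opposite seasons. The phospholipid and inositol list had -0.31 in season 2 and 0.20 in season 1 in polysomal RNA, and -0.36 and 0.37 in total RNA. These 13 lists were grouped for having no call, so that 0 of their 158 tested probe sets passed by limma follows from the grouping and is no result. At an unadjusted limma p under 0.05, 12 of the 158 were above and 18 below 0 in polysomal RNA, and 12 above and 7 below in total RNA. Of all tested probe sets 16.8% in polysomal and 14.8% in total RNA had such a p, in either direction.

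**Figure D5:**
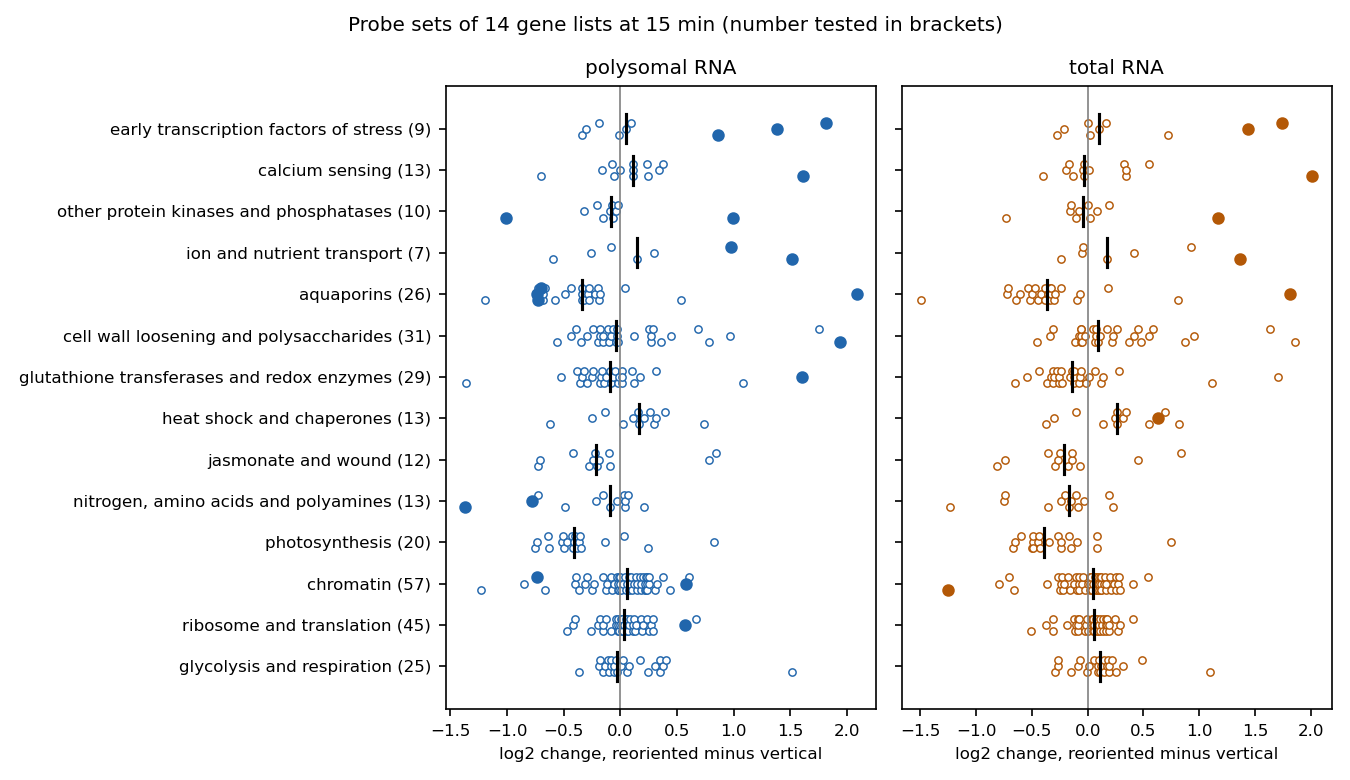
Log2 change at 15 min, reoriented minus vertical, of each tested probe set on 14 gene lists, in polysomal RNA (left) and total RNA (right). Filled points passed the adjusted p of 0.05 and the black bar is the list median; the aquaporin median is -0.34 and -0.37 and the photosynthesis median -0.41 and -0.39.

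Photosynthesis genes had low estimates in season 1. The 20 tested probe sets had a median change of -0.41 in polysomal and -0.39 in total RNA, and 0 passed by limma, with 9 below 0 in polysomal and 1 in total RNA at an unadjusted p under 0.05. Summed over the list, polysomal signals were 21123 to 23337 in reoriented and 36144 to 36249 in vertical pulvini of season 1. In season 2 they were 34264 to 34804 in reoriented and 35191 to 36852 in vertical pulvini. Total RNA sums were 19794 to 22826 in reoriented and 30974 to 33579 in vertical pulvini of season 1, and 34763 to 37273 in reoriented and 35577 to 36342 in vertical pulvini of season 2. PIP1-3 and MPAO gave polysomal changes of -0.46 and -1.51 in season 2, where the photosynthesis sums lay close, and of -1.01 and -1.22 in season 1. In total RNA the 4 PIP1-3 probe sets gave -0.26 to -0.09 in season 2 and -1.08 to -0.79 in season 1. The part of tissue composition in these values was not tested. Cell division genes summed to 7199 to 7596 in reoriented and 6279 to 6911 in vertical pulvini in polysomal RNA. In total RNA their sums overlapped, at 6859 to 8666 in reoriented and 6519 to 7594 in vertical pulvini. Polysomal sums of chromatin genes were 55997 to 56390 in reoriented and 60460 to 62008 in vertical pulvini of season 1. In season 2 the order was reversed, at 55755 to 59932 in reoriented and 54365 to 55731 in vertical pulvini. The polysomal sums of lignin genes stood in opposite order in the 2 seasons. They came to 26689 to 27654 in reoriented and 24069 to 25311 in vertical pulvini of season 1, and to 24028 to 25782 in reoriented and 27910 to 28472 in vertical pulvini of season 2. Of 40 probe sets of seed and pollen genes, 6 passed the filter on low signal, and the median signal over the 40 was 9.01 in polysomal and 11.5 in total RNA, so genes of organs that the pulvinus does not hold mostly gave low signals.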

How the data were processed

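RNA was hybridised to 48 Affymetrix arrays, of which the 16 described were compared. The deposited values are array signal intensities made by the authors with GCOS, per the submitters' processing notes; how they were scaled is not given in the sources used here. The 2% trimmed mean signal was 497.0 to 499.1 on the 16 arrays, so the values were used as deposited.

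To each intensity 16 was added before log2. Probe sets below the 40th percentile of mean log2 signal over all 48 arrays were left out, and 10527 of 17545 remained. Total RNA, polysomal RNA and their log2 difference were each fitted with limma 3.58.1 (R 4.3.3, lmFit and eBayes with trend, statmod 1.5.0). The model held 12 groups of side and time over 24 arrays, growing season as a fixed effect and the plant pool as a random block. Its correlation was 0.381 in polysomal and 0.575 in total RNA. p-values were adjusted over all 10527 probe sets by Benjamini-Hochberg, and the procedure was tested on simulated data.

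Same-numbered arrays deviated together from their group means (r = 0.531 to 0.848 in polysomal and 0.561 to 0.887 in total RNA over 6 pairs of groups), and per the labels the number marks the growing season. The season is therefore in the main model.

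Genes are those of the platform annotation, which gives 1 gene for 1452 probe sets and none for 16092. The rule named, per RNA, the 15 highest and 15 lowest changes that passed, moved one way in each season and carry 1 listed gene. It also took the 2 highest and 2 lowest without a gene. Where several probe sets of a gene met these terms, the one with the highest mean log2 signal was taken. Brighter probe sets of a gene that did not pass were thus left aside, as for expA4 in polysomal and H1 in total RNA. For lower minus upper and for polysomal minus total the rule took up to 5 each way. The comparison, the 26 gene lists and the alternatives were chosen with earlier results of these data known. Lists were matched by symbol or synonym, since the tables used here hold no descriptions. Groups of 4 were screened for single far arrays by Dixon's test, which found 0 in 88 groups. Both sides of a pool come from the same plants, so a deviating pool can give 2 far arrays, which this test can miss. Alternatives tried were other blocks, fits, scaling, pseudocounts and filters, and leaving out arrays.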

Additional observations from a re-analysis of the deposited data

How the results depend on the processing

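Counts of probe sets past the threshold depended most on the blocks. For reoriented minus vertical, 865 passed in polysomal and 953 in total RNA without the plant pool block, of which 556 and 539 rose. That fit treats both sides of a pool as independent samples, although they come from the same plants. With means of both sides as single samples, 238 and 189 passed. With no replicate block, that is with season left out and the pool block kept, 118 and 78 passed, and with a filter at the 60th percentile 223 and 158. Leaving out 1 array gave 280 to 374 in polysomal and 211 to 290 in total RNA. The 8-array fit, quantile scaling, pseudocounts of 4 and 64, no filter and, in polysomal RNA, the fit without the 5 min array gave summed counts within 1.5 times the main ones. Falls alone moved more. In total RNA, where 47 fell, 414 did without the plant pool block, 15 with pool means, 2 with no replicate block, 25 with the 60th percentile filter, 72 in the 8-array fit, 81 with no filter and 26 to 59 without 1 array, with 30, 26 and 29 without the left or lower array of season 1 or the upper of season 2. In polysomal RNA, where 102 fell, the first 4 of these gave 309, 36, 11 and 69, and 56 to 81 fell without 1 array. For lower minus upper in total RNA, 0 passed with no plant pool block, with the 8-array fit and with no filter, 1 with no replicate block, 2 with the 60th percentile filter and 0 to 2 without 1 array, with 0 of the 4 main ones among them. For lower minus upper in polysomal RNA and for polysomal minus total, 0 passed under each alternative run.

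No named gene that passed changed direction under any alternative, and none moved by over 1.5 times without 1 array. Calls held with any 1 array left out for 13 of 30 genes in polysomal and 8 of 14 in total RNA. These were SAG, CDPK1, dbf1, LOC542227, LOC732777, UGlcAE and MPK4 in both, with dbf2, expA4, DBP1a, ypt2, RPL19 and PPCK1 in polysomal and CPN60II in total RNA. LOC542227 and expA4 are counted on 1 probe set, and other probe sets of LOC542227 in total and of expA4 in polysomal RNA did not pass. With no replicate block 23 of the 30 and 10 of the 14 lost their call, and with no plant pool block 0 of either. The fit with no plant pool block counts both sides of a pool as independent samples and passes more probe sets, so this 0 is no support for the calls. With pool means as samples 16 of the 30 and 7 of the 14 lost their call (adjusted p up to 0.178 in each). Among these were UGlcAE in both RNAs, ypt2 and CPN60II. Of the 7 genes that fell in polysomal RNA, PPCK1 alone kept its call with pool means (adjusted p = 0.0315). MPAO, pip2c, H1, lkrsdh1, PIP1-3 and GRF4 lost theirs (0.115, 0.136, 0.136, 0.144, 0.162 and 0.174), and so did H1 in total RNA (0.138). In the 8-array fit 10 of the 30 and 5 of the 14 lost their call, among them RPL19 and CPN60II. The causes were not tested. Each group stands for 2 pools, which limits the precision.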
